A study of Mus musculus with 4 samples.

Results

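The Six-family genes encode homeodomain transcription factors, and the Eya genes encode co-activators that bind Six-family proteins and also carry a phosphatase domain. The 8 genes described here are Six2, Six3, Six4, Six5, Eya1, Eya2, Eya3 and Eya4, out of 22096 gene symbols in the deposited tables. They were chosen by a rule on gene symbols that does not use their values, but with earlier results of these data known. They are all 4 mouse Eya genes, but not every mouse Six-family gene. The study asked which genes of the palatal mesenchyme depend on Foxf2, a forkhead transcription factor required for closure of the palate. Mouse embryos of a mixed background were taken at embryonic day 13.5. All 4 carried 1 Osr2RFP allele, a knock-in that makes Osr2-expressing palatal mesenchyme red fluorescent, and the RFP-positive cells were sorted and made into 1 library per embryo. The controls were 1 Osr2RFP/+ embryo, Foxf2+/+ at the Foxf2 locus, and 1 Foxf2+/-Osr2RFP/+ embryo, and 2 littermates were Foxf2-/-Osr2RFP/+. These are called the wildtype control, the heterozygous control and the mutants from here on. The null allele is carried in the germline, so the other tissues of the mutants lacked Foxf2 as well. With 1 embryo per control genotype, the step from wildtype to heterozygous cannot be checked against replicates.

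Six-family and Eya proteins work together with Pax and Dach proteins in a network first worked out in the fly eye. A Six-family protein binds DNA through its homeodomain, and an Eya protein, which does not bind DNA itself, turns the complex into an activator, while Groucho-family proteins of the Tle genes make Six-family proteins repressors. In mammals the network acts in the head mesenchyme, kidney, ear, sensory placodes and skeletal muscle.

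The members of each family share stretches of coding sequence. In each family, 60-base in-frame stretches of Six2 or Eya1 were matched to their best counterpart in each other gene, each within a single exon. The stretch with the most bases identical in all 4 genes is printed 5′ to 3′ on the coding strand, with those bases in capitals. As it was picked for likeness, it does not show how alike the whole sequences are. In the Six-family genes 46 of the 60 bases were identical in all 4. The stretch lies in the homeobox, over the part that encodes the DNA-recognition helix.

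Six2: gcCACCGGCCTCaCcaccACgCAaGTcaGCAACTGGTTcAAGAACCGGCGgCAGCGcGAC

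Six3: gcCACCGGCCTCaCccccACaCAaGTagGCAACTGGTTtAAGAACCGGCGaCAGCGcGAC

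Six4: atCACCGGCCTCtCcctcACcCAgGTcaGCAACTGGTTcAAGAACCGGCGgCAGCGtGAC

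Six5: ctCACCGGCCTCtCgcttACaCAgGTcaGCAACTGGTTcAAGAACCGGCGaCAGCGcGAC

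These are mm9 chr17:86086756-86086815 on the minus strand for Six2, chr17:86021306-86021365 on the plus strand for Six3, chr12:74213359-74213418 on the minus strand for Six4 and chr7:19680673-19680732 on the plus strand for Six5, each in exon 1. Six3 matched Six2 at 54 bases, Six4 at 52 and Six5 at 50. In the Eya genes 41 of 60 bases were identical in all 4, in the stretch that encodes the catalytic motif of the Eya phosphatase domain.

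Eya1: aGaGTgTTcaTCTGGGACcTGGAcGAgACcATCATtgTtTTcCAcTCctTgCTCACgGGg

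Eya2: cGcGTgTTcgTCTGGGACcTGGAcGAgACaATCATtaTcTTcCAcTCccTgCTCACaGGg

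Eya3: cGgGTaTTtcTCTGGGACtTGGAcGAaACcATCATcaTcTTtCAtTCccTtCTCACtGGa

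Eya4: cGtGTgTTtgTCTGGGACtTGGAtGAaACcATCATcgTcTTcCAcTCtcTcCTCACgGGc

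They lie at mm9 chr1:14219598-14219657 (minus strand, exon 11), chr2:165557053-165557112 (plus strand, exon 9), chr4:132254945-132255004 (plus strand, exon 10) and chr10:22858021-22858080 (minus strand, exon 12). Eya2 matched Eya1 at 52 bases, Eya4 at 47 and Eya3 at 44. Over the 28 pairs of members the longest run of identical coding bases was 32, between Six2 and Six4. Over whole transcripts, both strands included, it was 44, between Six3 and Eya1 on opposite strands. The read length is not given in the sources used here, so whether reads could be shared between members was not tested.

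Levels are in FPKM, the number of fragments for each kilobase of a transcript scaled to all mapped fragments, which the authors estimated for each RefSeq transcript and which were summed by gene symbol. A gene was tested when it reached 5 FPKM in at least 1 embryo, and 7698 genes did. Fold changes are on the log2(FPKM + 0.1) scale, which understates the change of low genes, and tests are limma moderated tests with Benjamini-Hochberg adjustment over all 7698 genes. A call needed an adjusted p below 0.05 and a change of more than 1.5-fold. Read numbers are not in the tables, so depth is known only relative to the wildtype library, from 1.02 to 1.19 times in the other libraries. Foxf2 itself was at 85.4 FPKM in the wildtype control, 45.1 in the heterozygous control and 1.41 and 2.28 in the mutants, which follows the labels. Its log2 fold change was -5.03 (limma, adjusted p = 0.020), and with any 1 embryo left out it was between -5.49 and -4.57, with adjusted p-values from 0.161 to 0.456. All 8 listed markers of palatal mesenchyme reached 5 FPKM, with a summed level from 915 to 1087 FPKM, against 7.33 to 8.998 for 7 epithelial and 0.404 to 1.503 for 5 endothelial markers. The 5 blood markers, led by the embryonic globin gene Hbb-y, summed to 162 FPKM in the wildtype control, 1074 in the heterozygous control, 858 in the first and 2277 in the second mutant, which was above the mesenchyme sum in the heterozygous control (959) and the second mutant (1045). The part of these transcripts in the results was not tested.

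Six2 stood far above the other members, and most of the rest were at moderate levels. In the order of the mean over the 4 embryos, Six2 was at 232 FPKM, Six5 at 22.2, Eya1 at 13.8, Six4 at 11.9, Eya3 at 9.13, Eya4 at 6.93, Eya2 at 0.869 and Six3 at 0.0378. The ranges of neighbours in this order did not overlap over the 4 embryos, though Eya1 (12.6 to 15.4 FPKM) and Six4 (11.5 to 12.5 FPKM) lay close. In the controls the level of Six2 was above that of 99.3% of 22086 genes, and that of Six3 above 31.9%. Of the 8 members, 6 passed the filter, and Eya2 and Six3 were below it in every embryo.

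**Figure D1:**
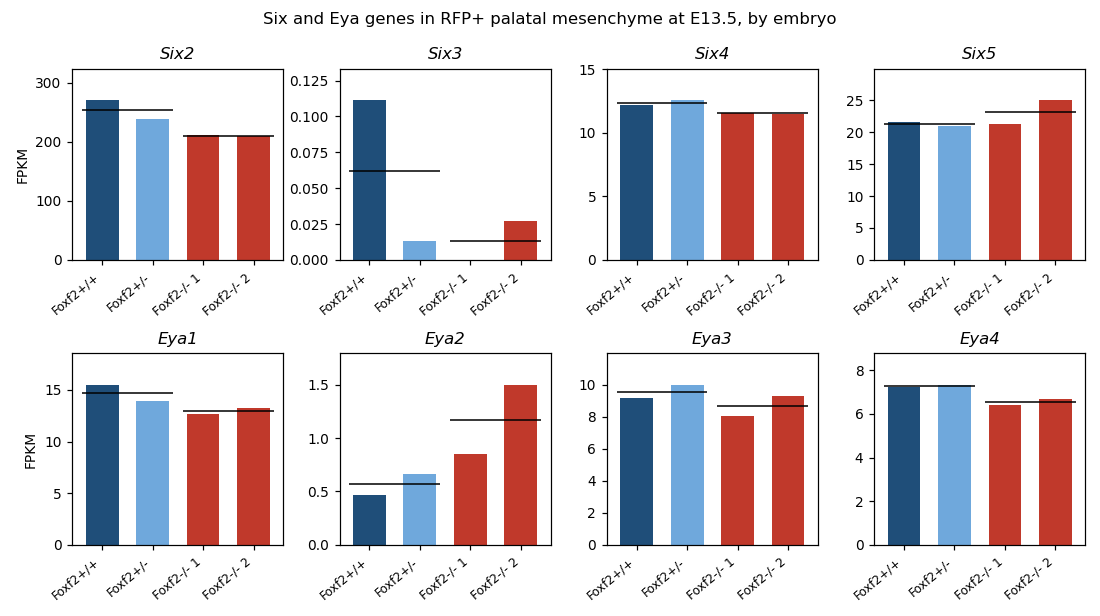
FPKM of each of the 8 genes (vertical axis, from 0, with its own scale per gene) in the wildtype control (Foxf2+/+), the heterozygous control (Foxf2+/-) and the 2 mutants (Foxf2-/-); bars are embryos and black lines are group means. Six2 was lower in both mutants than in both controls, Eya2 was higher at a low level, and Six3 stayed at or below 0.111 FPKM.

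None of the 6 tested members was called by limma, where 0.338% of all genes tested were called, and none changed by more than 1.5-fold against both controls, as 2.39% of all genes did (1.55% upward and 0.844% downward). At an unadjusted p below 0.05 there was 1 of the 6, Six2, beside 12.2% of all genes. The median log2 fold change of the 6 was -0.14, and that of all genes tested was -0.08. The 95% intervals of the 6 log2 fold changes lay between -0.53 and 0.39, inside 1.5-fold in either direction for each gene. Each group held 2 embryos, and an exact permutation test of 1 gene cannot then give a p below 0.333. In 4 of the 6, Six2, Six4, Eya1 and Eya4, both mutants were below both controls, which 37.7% of all genes tested also showed, and no member was above, which 8.77% showed. After rescaling by median ratios, 3 of the 6 were below (background 21.9%) and 1, Six5, was above (background 21.2%).

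**Figure D2:**
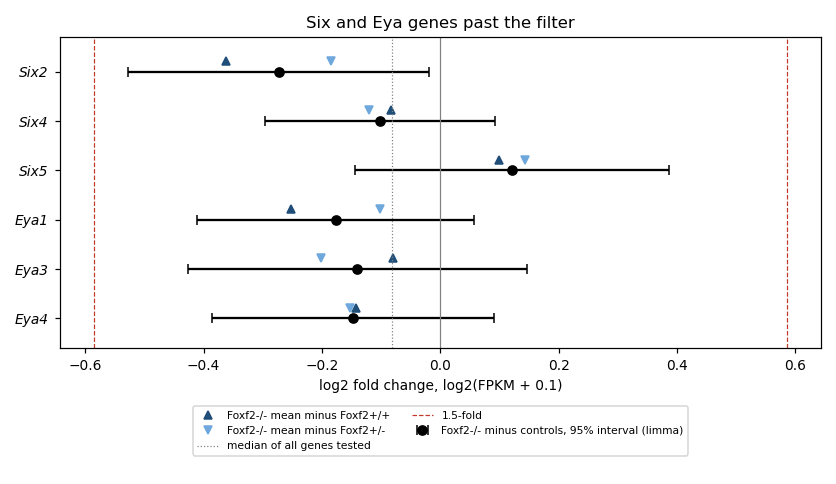
log2 fold change of the 6 tested genes (horizontal axis), with the 95% interval from limma as a bar around the dot, and the mean of the mutants against each control as triangles. All intervals lie between the dashed 1.5-fold lines, and the dotted line marks the median of all genes tested, -0.08.

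Six2, which marks mesenchyme of the face and keeps the nephron progenitors of the kidney undifferentiated, lies at mm9 chr17:86083608-86087594 on the minus strand and has 2 exons. It was at 270 FPKM in the wildtype control, 239 in the heterozygous control and 211 and 209.6 in the mutants. The groups did not overlap, so 1 control had to lie between the other and the mutants, and here it was the heterozygous control. The mean was 254 ± 22.1 FPKM in the controls and 210.2 ± 0.858 in the mutants (SD, n = 2 each), 17.3% lower on the log2 scale used for testing. The log2 fold change of -0.27 (95% interval -0.53 to -0.02) had an unadjusted p of 0.040 and an adjusted p of 0.406 in limma, so it was not called. It was -0.36 against the wildtype control and -0.18 against the heterozygous control, and -0.19 after rescaling by median ratios. As these are bulk samples, fewer cells that express a gene and less RNA per cell cannot be told apart.

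By the distance between centred log2 profiles over the 4 embryos, the genes most like Six2 were Ublcp1 (0.012), Pth1r (0.016) and Kif26b (0.023). Pth1r, the receptor for parathyroid hormone-related protein, was at 17.7 and 15.8 FPKM in the controls against 13.8 and 13.8 FPKM in the mutants. With only 4 embryos such likeness is common: 311 of the tested genes lay within a distance of 0.1 of Six2.

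Six3, which acts in the forebrain and eye, is the chromosomal neighbour of Six2. Its RefSeq entry at mm9 chr17:86020174-86025531, on the plus strand, ends 58.1 kb before that of Six2. Six3 was at 0.111 FPKM in the wildtype control and 0.0133 in the heterozygous control, and it was listed at 0 in the first and at 0.0269 in the second mutant. Values this low cannot show a difference between the groups. A long non-coding gene, Six3os1, overlaps Six3 on the opposite strand in the GENCODE annotation. Strand was not stated to be used in the estimates, so reads of the overlap cannot be told apart.

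Promoters are printed for Six2 and Six3, the neighbours with the highest and the lowest level of the group. Below are the 250 bases before the start of each gene from RefSeq (GRCm38.p6, another build than that of the expression tables), with CpG dinucleotides in capitals.

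Six2: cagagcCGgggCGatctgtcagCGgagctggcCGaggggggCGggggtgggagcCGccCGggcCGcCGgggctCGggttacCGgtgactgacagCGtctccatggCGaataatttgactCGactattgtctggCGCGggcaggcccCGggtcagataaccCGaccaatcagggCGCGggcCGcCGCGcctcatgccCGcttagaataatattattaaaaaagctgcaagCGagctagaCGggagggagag

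Six3: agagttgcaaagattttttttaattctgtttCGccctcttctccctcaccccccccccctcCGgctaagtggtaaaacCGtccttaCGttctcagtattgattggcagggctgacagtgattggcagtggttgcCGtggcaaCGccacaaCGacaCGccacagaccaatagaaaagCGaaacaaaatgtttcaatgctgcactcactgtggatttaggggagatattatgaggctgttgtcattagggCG

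The Six2 stretch, chr17:85688255-85688504 on the minus strand, held 26 CpG and had a GC content of 64.8%. The Six3 stretch, chr17:85620584-85620833 on the plus strand, held 10 CpG and had a GC content of 48.8%, where the medians of all 32851 promoters in the RefSeq table were 6 CpG and 52.4%. The table held 8 promoters for 6 of the members, each from 250 bases before to 50 bases after a start. In the same 250 bases Six5 held 13 CpG, Six4 15 and 13 in its 2 promoters, Eya3 18, and Eya4 25 and 35. Eya4 thus had more CpG than Six5, at a lower level (6.93 against 22.2 FPKM). Whether CpG number goes with level was not tested. The forkhead letters TGTTTAC, searched on both strands, were in 0 of these 8 promoters and in 3.65% of all promoters. The letters TCANGTT, the core of the site that Six-family proteins bind in muscle genes, were in 11.3% of all promoters and in 2 of the 8. Both were promoters of Six4, which overlap each other. A match or its absence describes the letters in these windows only.

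Six4 and Six5 differed from each other in level but neither was called. Six4, which acts in muscle and kidney development, lies at mm9 chr12:74201246-74214232 on the minus strand with 3 exons. It was at 12.2 and 12.5 FPKM in the wildtype and heterozygous controls against 11.5 FPKM in both mutants. The mutants were below both controls as deposited, but the difference was small, at -0.10 on the log2 scale (95% interval -0.30 to 0.09, limma adjusted p = 0.597). After rescaling by median ratios it was -0.02 and the groups overlapped. Six5, a neighbour of the myotonic dystrophy kinase gene, lies at mm9 chr7:19679893-19683694 on the plus strand and has 3 exons. It was at 21.5 FPKM in the wildtype control, 20.9 in the heterozygous control and 21.4 and 24.97 in the mutants. The first mutant lay between the controls and the second above them, for a log2 fold change of 0.12 (95% interval -0.14 to 0.39, limma adjusted p = 0.635), and 0.01 without the second mutant. Six5 exceeded Six4 in every embryo, by 1.77 times in the wildtype control, 1.67 times in the heterozygous control and 1.85 and 2.17 times in the mutants.

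Eya1, whose human counterpart is mutated in branchio-oto-renal syndrome, was the most abundant Eya gene. Its RefSeq entry lies at mm9 chr1:14159039-14300280 on the minus strand, and its longest coding transcript has 18 exons. It was at 15.4 FPKM in the wildtype control, 13.9 in the heterozygous control and 12.6 and 13.3 in the mutants. As for Six2, the groups did not overlap and the heterozygous control was in between, while for Six4 and Eya4 it was the wildtype control. With 1 embryo per control genotype, this order cannot be checked. The log2 fold change was -0.18 (95% interval -0.41 to 0.06, limma adjusted p = 0.472), and it was -0.25 against the wildtype control and -0.10 against the heterozygous control. After rescaling by median ratios it was -0.10.

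Eya4, a gene of inner ear development, lies at mm9 chr10:22823974-23069709 on the minus strand with 19 exons in its longest coding transcript. It was at 7.26 and 7.31 FPKM in the wildtype and heterozygous controls against 6.43 and 6.71 FPKM in the mutants, so the controls differed little and both mutants were below them. The log2 fold change was -0.15 (95% interval -0.39 to 0.09, limma adjusted p = 0.544), and -0.07 after rescaling by median ratios. Eya3, which is broadly expressed, lies at mm9 chr4:132194961-132280678 on the plus strand. It was at 9.16 and 9.97 FPKM in the controls against 8.07 and 9.30 FPKM in the mutants, which overlap, with a log2 fold change of -0.14 (95% interval -0.43 to 0.15, limma adjusted p = 0.613). It was -0.06 after rescaling by median ratios, and with 1 embryo left out between -0.24 (without the second mutant) and -0.04 (without the first).

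Eya3 was the only member with several transcript entries. The entry of 5158 bases, NM_210071, carried 96.4% and 97.7% of the FPKM of the gene in the controls and 92.5% and 96.7% in the mutants. The entry of 5187 bases, NM_010166, was at 0.334 and 0.224 FPKM in the controls against 0.608 and 0.248 FPKM in the mutants, and the entry of 4977 bases, NM_211357, did not exceed 0.0613 FPKM. The split between entries that share nearly all their sequence is an estimate, and taking the longest entry alone would turn the direction of Eya3, to 0.40 on the log2 scale, at values below the filter.

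Eya2, an Eya gene known from muscle and sensory placodes, differed more between the groups than the 6 tested members on the log2 scale, at a low level. It lies at mm9 chr2:165480798-165597131 on the plus strand, with 16 exons in its longest coding transcript, and a pseudogene, Gm11460, overlaps it on the opposite strand. It was at 0.468 FPKM in the wildtype control, 0.666 in the heterozygous control and 0.848 and 1.49 in the mutants. The groups did not overlap, but the spread between the mutants was wide. The mean was 0.567 ± 0.140 FPKM in the controls and 1.17 ± 0.457 in the mutants (SD, n = 2 each), a log2 difference of 0.90. A filter of 1 FPKM, which 11874 genes passed, admitted Eya2 only through the second mutant, in the group where it was higher, so its values there are a description. With that filter limma gave an adjusted p of 0.517 for Eya2, so it was not called, and 0.227% of genes were. Groups did not overlap upward for 10.2% of genes at that filter. There Eya2 passed 1.5-fold against both controls, as 1.57% of genes did upward, with 1.11 against the wildtype and 0.68 against the heterozygous control on the log2 scale. Without the second mutant the log2 difference was 0.52. Summed levels of 5 endothelial markers were 0.404 and 0.608 FPKM in the controls against 0.893 and 1.503 FPKM in the mutants, and those of 6 skeletal muscle markers 0.809 and 0.860 against 0.454 and 0.362. For 5 neural and glial markers they were 3.55 and 5.33 against 5.39 and 5.53 FPKM. The groups did not overlap for the endothelial, muscle and neural sums. The defining muscle genes were at or near 0, with Myog listed at 0 in all 4 embryos and Myod1 no higher than 0.0327 FPKM. The part of other cell types in the Eya2 values was not tested.

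**Figure D3:**
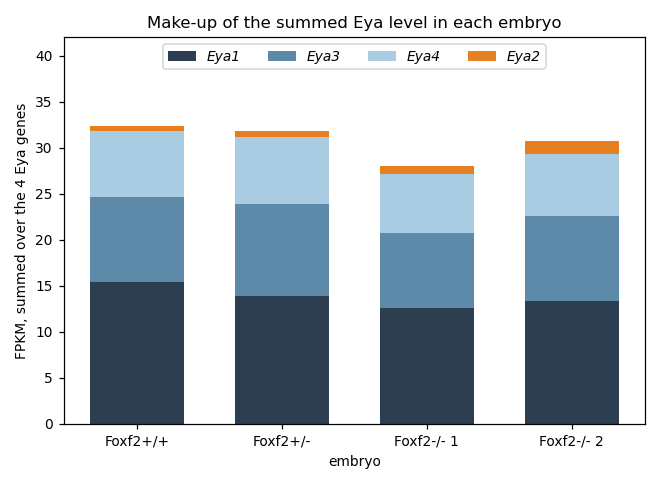
FPKM of Eya1, Eya3, Eya4 and Eya2 (stacked, vertical axis from 0) in each of the 4 embryos. The sum was 32.3 and 31.9 FPKM in the controls against 28.0 and 30.8 FPKM in the mutants, with Eya1 at 43.2% to 47.8% of it in every embryo and Eya2 at 1.45% to 4.85%.

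The summed level of the 4 Eya genes was 32.3 and 31.9 FPKM in the controls against 28.0 and 30.8 FPKM in the mutants. Its make-up changed little between embryos: Eya1 gave 43.2% to 47.8% of it, Eya3 28.3% to 31.3% and Eya4 21.8% to 22.98%. The share of Eya2 was 1.45% and 2.09% in the controls and 3.03% and 4.85% in the mutants.

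The partners of Six-family and Eya proteins were taken as a list, of which 17 genes are reported: Pax, Dach and Tle genes, the Groucho-related Aes, Sobp, Mcrs1 and Six6. Of these, 8 passed the filter and none was called by limma, with 2 at an unadjusted p below 0.05, beside 0.338% and 12.2% of all genes tested. Both mutants were above both controls for 4 of the 8 (background 8.77%) and below for 3 (background 37.7%), and the median log2 fold change was 0.10, beside -0.08 over all genes. After rescaling by median ratios 5 were above (background 21.2%) and 1 below (background 21.9%). Pax9, a transcription factor required for palate formation, was the most abundant of the 8, at 81.2 FPKM in the wildtype control, 100.1 in the heterozygous control and 127 in both mutants. Its groups did not overlap, and its log2 fold change was 0.50 (95% interval 0.18 to 0.81, limma adjusted p = 0.387). The Tle genes and the Groucho-related Aes were at 7.26 to 19.1 FPKM. Their log2 fold changes ran from -0.08 for Tle2 to 0.22 for Tle1, with Tle3, Tle4 and Aes in between at 0.05, 0.14 and 0.20. The Eya cofactor Sobp had a log2 fold change of -0.28 and Mcrs1 of -0.18, with limma adjusted p-values of 0.408 and 0.430.

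The other 9 partner genes were below the filter. Dach1, a co-factor that binds Six-family and Eya proteins, was at 2.45 and 2.34 FPKM in the controls against 3.52 and 3.36 FPKM in the mutants, a log2 difference of 0.51 (limma with a filter of 1 FPKM, adjusted p = 0.421). Pax1, a close relative of Pax9 and chosen here after its values were seen, was at 0.0673 and 0.171 FPKM in the controls against 1.15 and 1.36 FPKM in the mutants. Both mutants were well above both controls, with a log2 difference of 2.66. Pax1 reached 1 FPKM only in the mutants, so no test is given for it. Dach1 was chosen after its values were seen as well. In the other direction Dach2, a relative of Dach1, was at 0.413 and 0.382 FPKM in the controls against 0.303 and 0.290 FPKM in the mutants, also without overlap. Pax3, a gene of neural crest and muscle precursors, was at 1.44 and 2.56 FPKM in the controls against 1.47 and 1.4001 FPKM in the mutants, which overlap. Six6, an eye gene, was at 0.0603 FPKM or less.

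Genes that other tissues use as targets of Six-family and Eya proteins were taken as a list of 14, and 6 passed the filter. None was called by limma, with 3 at an unadjusted p below 0.05, beside 0.338% and 12.2% of all genes tested, and the median log2 fold change was -0.03. Against both controls 2 of the 6 were more than 1.5-fold higher, where 1.55% of all genes tested were. Igfbp5, a secreted binding protein of insulin-like growth factors, was at 33.3 and 33.9 FPKM in the controls against 55.2 and 72.1 FPKM in the mutants. Both mutants were above both controls, which differed little, with a log2 fold change of 0.91 (95% interval 0.53 to 1.28, limma adjusted p = 0.276). Ccnd1, which encodes cyclin D1 of the G1 phase, was at 23.8 FPKM in the wildtype control, 32.8 in the heterozygous control and 46.7 and 54.9 in the mutants. Its log2 fold change was 0.86 (95% interval 0.38 to 1.33, limma adjusted p = 0.378), with 1.08 against the wildtype and 0.63 against the heterozygous control. Fgf10, Myc, Slc12a2 and Mest had log2 fold changes of -0.48, -0.31, -0.13 and 0.07, with limma adjusted p-values from 0.408 to 0.875.

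**Figure D4:**
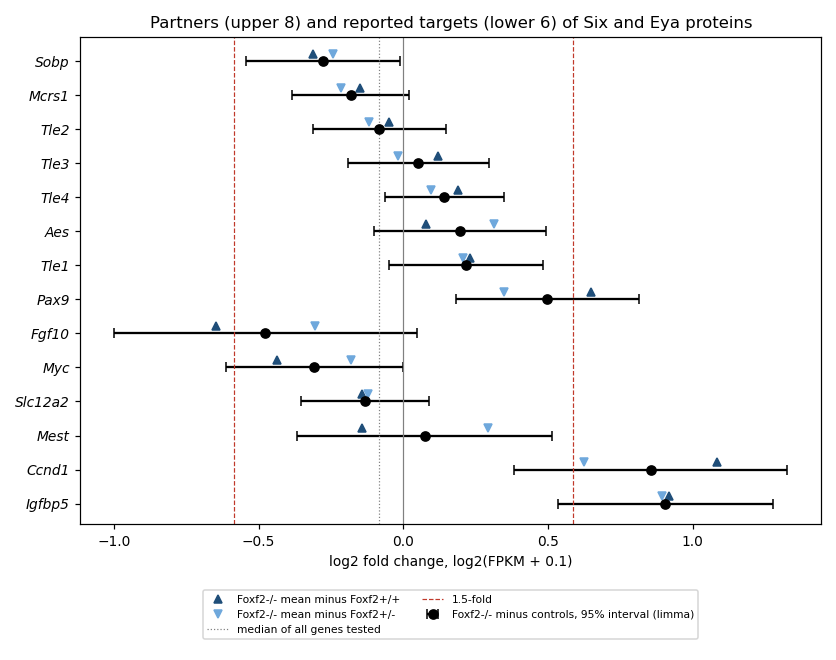
log2 fold change (horizontal axis) of the 8 tested partner genes and, below them, the 6 tested target genes, with 95% intervals from limma as bars and the mean of the mutants against each control as triangles. Pax9, Ccnd1 and Igfbp5 lie furthest to the right, at 0.50, 0.86 and 0.91, and none of the 14 was called.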

How the data were processed

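RNA of sorted RFP-positive cells from 4 embryos was analysed. Per the paper's methods single-end reads were mapped by the authors with Bowtie (0.12.7 in the submitters' processing notes) and Tophat, on mm9, and they deposited 1 table per embryo, without pooling, with an FPKM and a coverage for each of 28107 RefSeq entries. The tables have the layout of Cufflinks output, while the methods name Strand NGS for expression values; program version and options of the FPKM estimates are not given in the sources used here. The deposited coverage signal, mean read depth, is a constant multiple of FPKM within a library and served for relative depth.

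FPKM values were summed by symbol, and 10 symbols with a failed estimate were left out. limma 3.58.1 (R 4.3.3) with a variance trend compared Foxf2-/- with control embryos on log2(FPKM + 0.1). It was also run on simulated data with planted changes larger than those of the tested members. That run does not show how the test performs on changes of their size. Entry starts, written from 1, were exon starts of GENCODE M1 (NCBIM37, the same assembly as mm9) for 6 of 8 members. Python 3.11.15, pandas 2.3.3 and numpy 2.4.6 were used.

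Genes named are the 8 members, Foxf2, the listed partner and target genes that passed the filter (Pax1, Pax3, Dach1, Dach2, Six6, Myod1 and Myog, below it, were singled out after their values were seen), and the 3 genes nearest to Six2, the tested member with the largest absolute log2 fold change. The members and lists were chosen with earlier results of these data known. The partner list held 1 further gene that is not reported here. The embryos are littermates, and p-values measure the spread between these 4 samples.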

Additional observations from a re-analysis of the deposited data

How the results depend on the processing

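The limma counts and the log2 fold changes of the members and Foxf2 were recomputed under 13 alternative settings, and the 1.5-fold counts under those that do not only change the limma model. Fold changes of single partner and target genes were not. Of 104 values of a member's log2 fold change, 1 changed sign, that of Eya3 with the longest entry only, at 0.40, where the entry that carries most of its FPKM is left out; Six3, near 0, went to -1.47 with a pseudocount of 0.01 FPKM. No member that passed the filter of a setting was called by limma there, and the lowest adjusted p was 0.280, for Six2. Six3 was tested only without a filter, and Eya3 not with the longest entry only. Eya2 entered the fit only without a filter or with that of 1 FPKM, which it passed only through the second mutant. Its outcome with that filter is a description only. By 1.5-fold against both controls 1 member, Eya2, passed with a filter of 1 FPKM and without a filter, and this only describes its values. Each embryo was left out in turn only at the filter of 5 FPKM, which Eya2 and Six3 do not reach. The number of members passing there was 0 throughout, so this says nothing on Eya2. The log2 fold changes ranged from -0.36 to -0.18 for Six2 and from 0.01 to 0.23 for Six5. Over all genes, limma called 26, and 6 with entries of at least 200 bases only, 0 with the number of null alleles as a linear term (1099 at an unadjusted p below 0.05) and 0 to 58 with 1 embryo left out (0 without the second Foxf2-/- embryo, with 684 at an unadjusted p below 0.05; 54 without the Foxf2+/+, 14 without the Foxf2+/- and 58 without the first Foxf2-/- embryo). The 1.5-fold criterion gave 184 genes, and 352 with a filter of 1 FPKM, 775 without a filter, 49 with entries of at least 200 bases and 171 to 443 with 1 embryo left out (334 without the Foxf2+/+ and 443 without the Foxf2+/- embryo). The Foxf2 call was lost without a filter (limma adjusted p = 0.112), without a variance trend (0.124) and with the linear term (0.282). The causes were not tested. No paired analysis was made, as the embryos are littermates of different genotypes and nothing pairs a mutant with a control. Intervals and p-values rest on 2 embryos a group, and read depth, which limits Six3 and Eya2 most, is unknown.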
